A study of Sus scrofa with 6 samples.

Results

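The chemokine, interleukin and cytokine receptor genes of porcine granulosa cells were compared between antral follicles that were healthy (HA) or atretic (AA). The members were all rows of the gene table whose name begins with CCL, CXCL, XCL, CX3C, CCR, CXCR or XCR, or with IL and a digit, without the interleukin 1 ligands, their antagonist and receptors named IL1R. The rule found 101 rows with 99 names among 19442 rows, since CCR2 and IL2RA each have more than 1 row. They comprised 29 chemokine ligands, 17 chemokine receptors, 22 interleukins, 31 interleukin receptor subunits, and 2 genes of other function with interleukin-derived names, IL18BP and IL4I1.

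The cells came from nulliparous gilts in the early to middle follicular phase, for which no treatment is stated, and each group had 3 libraries of total RNA depleted of rRNA. HA follicles were pinkish and vascularized with clear fluid, and AA follicles were opaque and at an advanced stage of atresia, as judged under a stereomicroscope. Each library was a pool of follicles drawn at random from those of its class, and the scraped mural cells were mixed with the fluid of their follicles, which in AA follicles also carried loose apoptotic cells. The breed is not given in the sources used here, and the pools were not sorted for a cell type. The study did check purity: nearly all scraped cells stained for FSHR, and its qRT-PCR did not detect the theca marker CYP17A1. Because the libraries are bulk pools, fewer cells of a type and less RNA per cell cannot be told apart.

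Chemokines are small secreted proteins that draw cells bearing the matching receptor, and most of these receptors are carried by leukocytes. Interleukins signal through receptor chains that usually work in pairs, so that a shared chain such as gp130 or the common gamma chain serves several ligands. In the ovary, leukocytes lie mainly in the stroma and theca, and macrophages enter the granulosa layer as a follicle degenerates.

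Levels are given as FPKM, the fragments of a gene scaled to its transcript length and to the mapped fragments of the library, which allow genes to be set side by side. Of the member rows, 28 passed the filter for testing (at least 1 FPKM in at least 3 of the 6 libraries), which is 27.7% of them, whereas 56.6% of all rows passed. A further 37 were above 0 in at least 1 library, and 36 were listed at 0 in all 6. A value of 0 may be a failed estimate, because the RNA polymerase II subunit genes POLR2J and POLR2L, which every cell uses, were listed at 0 as well. The groups differed in how many members they showed. Interleukin receptor subunits passed in 13 of 31 rows, chemokine ligands in 8 of 29, chemokine receptors in 3 of 17 and interleukins in only 2 of 22, namely IL33 and IL17D.

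The cell type in the labels could be seen in the libraries, as could other cells. FSHR, the receptor for follicle-stimulating hormone, was at 51.0, 33.3 and 28.4 FPKM in HA and at 92.0, 88.3 and 90.0 FPKM in AA. Aromatase (CYP19A1) went the other way, at 744, 1052 and 802 FPKM in HA and at 224, 128 and 307 FPKM in AA. The 13 rows of the macrophage list summed to 47.6, 15.2 and 14.5 FPKM in HA libraries 1, 2 and 3 and to 159, 434 and 104 FPKM in AA libraries 1, 2 and 3, with CD163 listed at 0 throughout. The 4 rows for markers of all leukocytes summed to 3.45 to 17.2 FPKM in HA and to 39.3, 112 and 44.1 FPKM in AA. Neutrophil markers reached at most 1.49 FPKM in sum and B cell markers at most 0.434 FPKM. However, 3 of the 5 neutrophil rows and 2 of the 3 B cell rows were listed at 0 throughout, which may be failed estimates. AA library 2 stood apart: of the 14 macrophage and leukocyte markers tested, 13 were highest in it. The 9 granulosa genes summed to 4643 FPKM there against 8041 to 12893 FPKM in the other 5 libraries. Not every gene of that list was lowest in AA library 2. FSHR was above every HA library there, HSD17B1 was lowest in AA library 3, and CDH2 was lowest in AA library 1. The log2 changes of the members and signalling genes below are therefore also given without it. T and NK cell markers summed to 1.74 to 6.39 FPKM in HA and to 5.33, 22.01 and 6.55 FPKM in AA. Endothelial markers summed to 3.61 to 7.47 FPKM in HA and to 8.50, 29.7 and 18.3 FPKM in AA. For stroma and smooth muscle the sums were 17.4 to 29.7 FPKM in HA and 40.6, 107 and 44.6 FPKM in AA. All of these were highest in AA library 2. Theca markers were not, at 36.1 to 57.9 FPKM in HA and 36.5, 22.5 and 21.6 FPKM in AA. INSL3 and PTCH1 made up most of these theca sums. CYP17A1, which the study's qRT-PCR did not detect, was at 0.297, 1.38 and 0.191 FPKM in HA libraries 1, 2 and 3. It was lower in every AA library, at no more than 0.106 FPKM, and was listed at 0 in AA library 2. Red cell markers were highest in HA library 3 (199 FPKM). The part of these other cells in any result was not tested.

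AA was compared with HA by limma on log2(FPKM + 1) over the 11001 genes that passed the filter, to see which members differed between the follicle classes. On this scale the change of low genes is understated. No member passed the threshold of 0.05 on the adjusted p, and no gene of the table did (0 of 11001, 0%). The smallest adjusted p was 0.110 among the members and 0.0568 among all genes tested. At an unadjusted p of at most 0.05, 6 members were higher in AA (CXCR4, CCR1, IL6R, CXCL14, IL17RD and IL10RA) and 1 was lower (IL33), where the same threshold took 9.48% of all genes tested as higher and 6.14% as lower. CCR1, IL6R and IL10RA were under 1 FPKM in every HA library and could be tested only because they were high in AA. Over the other 25 members, 3 were higher and 1 was lower. Of these, CXCL14 reached 1 FPKM in only 1 HA library. The member values below are therefore a description of these libraries, not a set of differences that passed the test.

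**Figure D1:**
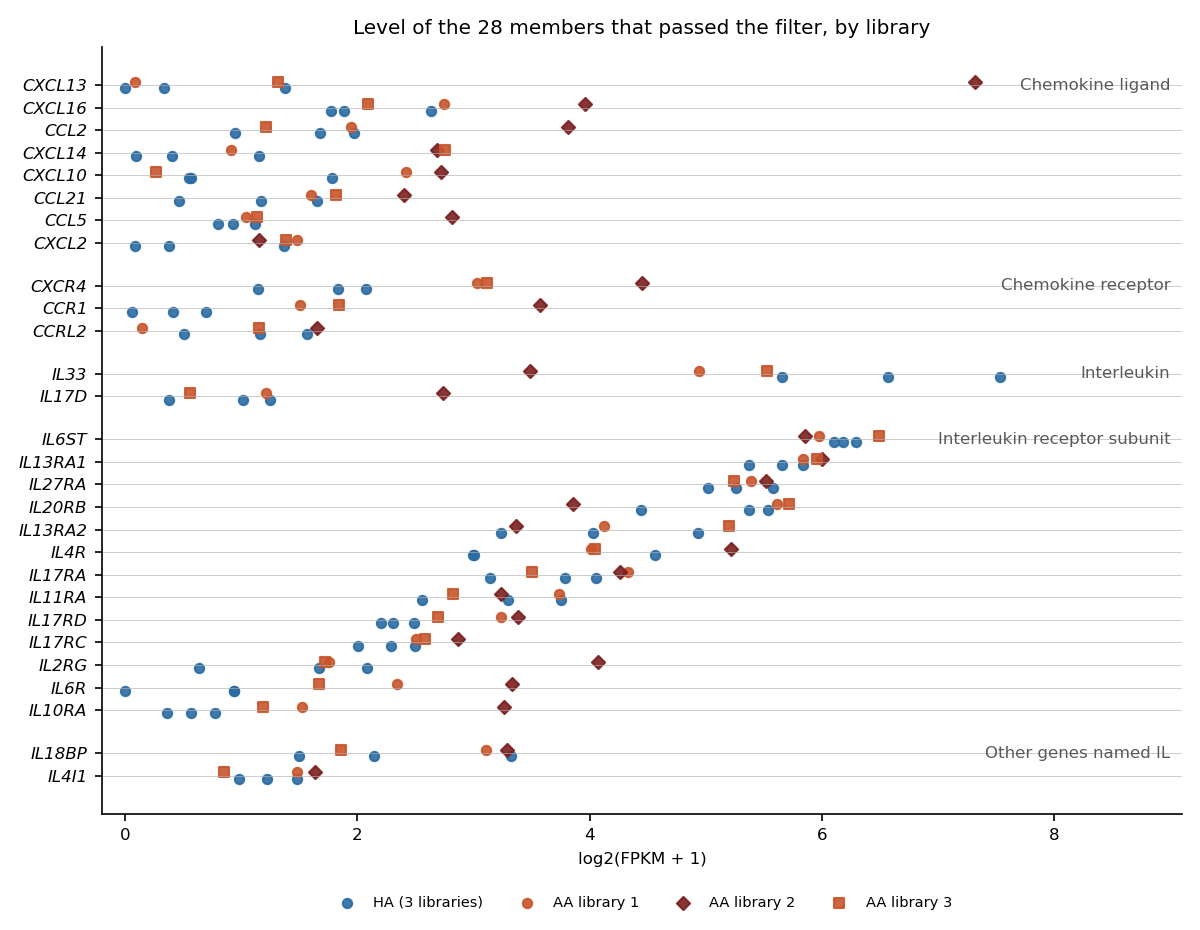
Level of each of the 28 members that passed the filter, as log2(FPKM + 1) on the horizontal axis, with 1 symbol per library (blue circles for the 3 HA libraries, other symbols for AA libraries 1, 2 and 3), grouped by role. Receptor subunits such as IL6ST and IL13RA1 lie close together in all 6 libraries, IL33 lies lower in every AA library, and AA library 2 is the highest for 18 of the 28.

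IL33 was the most abundant ligand by the mean over the 6 libraries and the 1 member lower in AA at the unadjusted threshold. In AA library 2 it was exceeded by CXCL13. It encodes an alarmin, a cytokine stored in the nucleus and released from damaged cells, whose receptor chain is ST2. The gene lies on the minus strand of Sscrofa10.2, chr1:241453675-241630720. In HA libraries 1, 2 and 3 it was at 184, 93.7 and 49.4 FPKM, and in AA libraries 1, 2 and 3 at 29.8, 10.22 and 45.1 FPKM. Every AA library was thus below every HA library, although AA library 3 and HA library 3 lay close together. The means were 109 ± 68.6 FPKM (SD, n = 3) in HA and 28.4 ± 17.5 FPKM (SD, n = 3) in AA, a mean 3.84-fold higher in HA. The log2 change was −1.93 (SE 0.58, adjusted p = 0.168), and it was −1.35 (SE 0.50, adjusted p = 0.431) without AA library 2. The study chose this gene for qRT-PCR. The primer pair it designed is shown because it identifies the transcript that was measured. Those measurements were not used here, and the position of the primers within the gene was not mapped.
IL33 forward: accagatcacaagaagcctg
IL33 reverse: gccggctgagctattcatct

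The other 21 interleukin rows were low. IL18, a cytokine of macrophages that is released by the inflammasome, did not pass the filter, with 0.563, 0 and 0.0817 FPKM in HA and 0.795, 8.31 and 0.677 FPKM in AA. Its groups did not overlap, but the value of AA library 2 was the highest of any member under the filter. IL18BP, the secreted protein that binds and neutralizes IL18, did pass, at 1.83, 3.40 and 9.02 FPKM in HA and 7.62, 8.77 and 2.64 FPKM in AA, with overlap (log2 change 0.43, SE 0.54, or 0.16 without AA library 2). IL17D, a divergent member of the interleukin 17 family, was at 0.296, 1.03 and 1.37 FPKM in HA and 1.31, 5.67 and 0.477 FPKM in AA. Its log2 change of 0.62 (SE 0.56, adjusted p = 0.633) became 0.01 without AA library 2. IL17B was at 0.616, 0 and 1.94 FPKM in HA and 2.17, 0.763 and 0.222 FPKM in AA. IL7, a growth factor of lymphocytes, was at 1.54, 0 and 0.512 FPKM in HA and at 0.0790, 0.593 and 0.374 FPKM in AA. Neither IL17B nor IL7 separated the groups.

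IL10, which restrains macrophages, was at 0.862, 0.136 and 0.186 FPKM in HA and at 0.257, 0.256 and 0.872 FPKM in AA. IL15, a growth factor of natural killer cells, was listed at 0 in every HA library and was at 0, 0.419 and 0.0489 FPKM in AA. Both overlapped between the groups. IL34, a second ligand of the macrophage colony-stimulating factor receptor, was at 0.541 FPKM in HA library 2 and listed at 0 in the other 5 libraries. The 11 interleukin rows listed at 0 in all 6 libraries included IL12A and IL12B, the subunits of interleukin 12, and the T cell cytokines IL13, IL17A, IL21 and IL22. IL6 and IL4 are spelled with a hyphen in the table and so lie outside the rule. They were also listed at 0 throughout.

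The 8 chemokine ligands that passed the filter were low, with a single exception in 1 library. CXCL13, which attracts B cells, was at 0, 0.258 and 1.59 FPKM in HA libraries 1, 2 and 3 and at 0.0589, 158 and 1.49 FPKM in AA libraries 1, 2 and 3. The 5 libraries other than AA library 2 thus covered the same low range in both groups. Its log2 change of 2.34 was the largest of the members, but its SE was 1.61 and the adjusted p 0.532, and without AA library 2 the change was 0.13 (adjusted p = 0.967). CXCR5, the receptor of CXCL13 on B cells, was listed at 0 in all 6 libraries.

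CXCL14, a chemokine of epithelia that draws monocytes, was at 0.324, 1.23 and 0.0696 FPKM in HA and at 0.885, 5.43 and 5.75 FPKM in AA. Here AA libraries 2 and 3 were both high, and AA library 1 lay within the HA range. The log2 change was 1.57 (SE 0.55, adjusted p = 0.228), and it was 1.28 without AA library 2. CXCL16, a membrane-bound chemokine that also takes up oxidized lipoprotein, was at 2.69, 5.22 and 2.42 FPKM in HA and at 5.69, 14.5 and 3.27 FPKM in AA. Its 2 highest values were in AA libraries, but HA library 2 exceeded AA library 3, and the log2 change was 0.83 (SE 0.48, adjusted p = 0.457), or 0.32 without AA library 2. CXCL16 binds CXCR6, which was at 0.536 FPKM in AA library 2 and listed at 0 in the other 5 libraries.

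CCL2, the main attractant of monocytes, was at 2.91, 2.197 and 0.931 FPKM in HA and at 2.85, 13.02 and 1.31 FPKM in AA. CCL5, which attracts T cells and monocytes, was at 1.17, 0.908 and 0.738 FPKM in HA and at 1.06, 6.02 and 1.19 FPKM in AA. For both genes the AA libraries 1 and 3 were within or next to the HA range, and only AA library 2 stood clear of it. The log2 change of CCL2 went from 0.79 to 0.05 and that of CCL5 from 0.71 to 0.14 without AA library 2. CCL8, which also attracts monocytes, did not pass the filter, at 0.537, 0.300 and 0.156 FPKM in HA and 0.872, 4.28 and 1.21 FPKM in AA, without overlap.

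CXCL10, an interferon-induced attractant of T cells, was at 2.43, 0.461 and 0.482 FPKM in HA and at 4.34, 5.59 and 0.199 FPKM in AA. The table places CXCL10 and CXCL11 at the same coordinates, with CXCL11 listed at 0, so the division of reads between them is uncertain. CCL21, a ligand of CCR7 that guides dendritic cells and lymphocytes, was at 2.13, 0.376 and 1.25 FPKM in HA and at 2.02, 4.29 and 2.51 FPKM in AA. CXCL2, which attracts neutrophils, was at 1.58, 0.0577 and 0.297 FPKM in HA and at 1.79, 1.23 and 1.61 FPKM in AA. The groups overlapped for all of these genes. Without AA library 2 the log2 change of CXCL10 went from 0.84 to 0.38 and that of CCL21 from 0.84 to 0.61. CXCL2 was the only ligand that passed whose change was larger without AA library 2 (0.82) than with it (0.73). CXCL8, the principal neutrophil attractant, reached 0.416 FPKM in AA library 2 and was listed at 0 elsewhere.

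**Figure D2:**
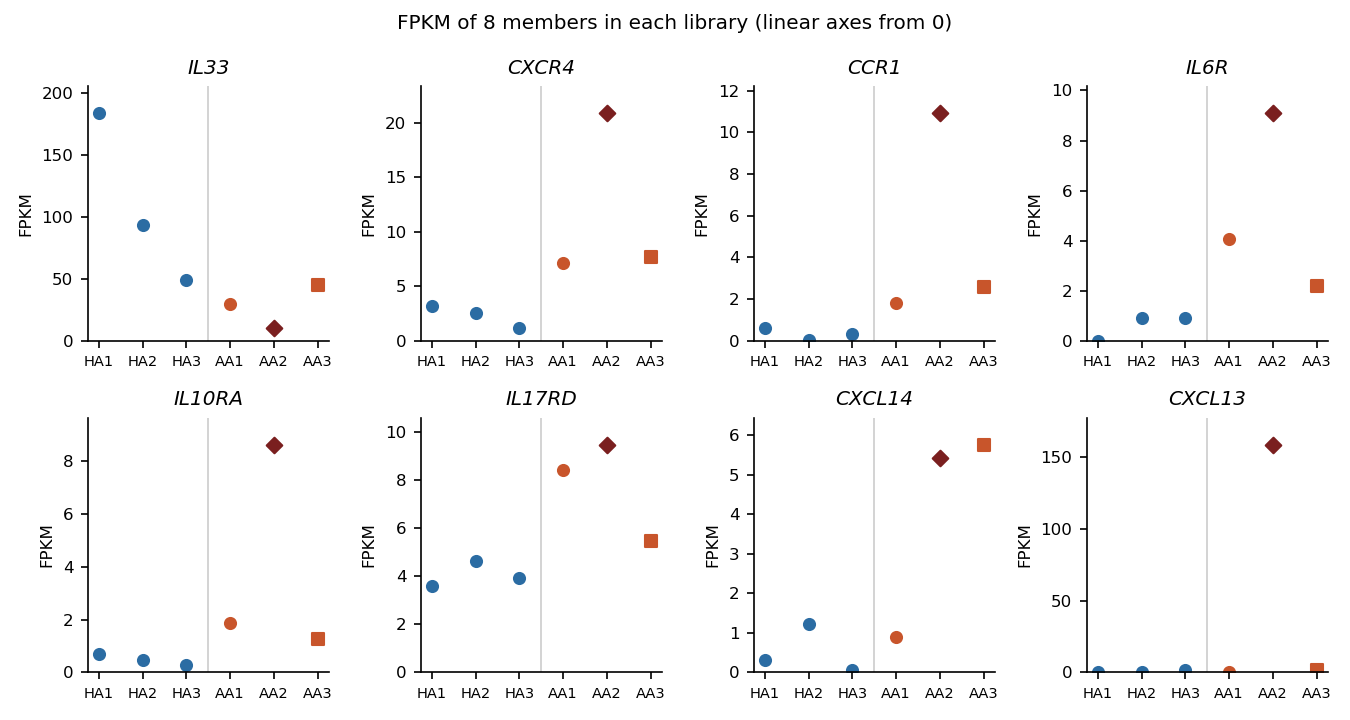
FPKM of IL33, CXCR4, CCR1, IL6R, IL10RA, IL17RD, CXCL14 and CXCL13 in each library, 1 panel per gene with its own linear axis from 0, HA libraries to the left of the line and AA libraries to the right. The groups do not overlap in the first 6 panels, while CXCL13 stands at 158 FPKM in AA library 2 and at no more than 1.59 FPKM in the other 5.

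Among the chemokine receptors, CXCR4 had the highest level and the smallest adjusted p of any member. It is the receptor of CXCL12 and is carried by leukocytes and by many migrating cells, and it lies on the plus strand of chr15:18124940-18128996. CXCR4 was at 3.20, 2.56 and 1.22 FPKM in HA and at 7.16, 20.9 and 7.67 FPKM in AA. All AA libraries were above all HA libraries, and AA library 2 was the highest. The mean was 2.32 ± 1.01 FPKM (SD, n = 3) in HA and 11.9 ± 7.78 FPKM (SD, n = 3) in AA, which is 5.12-fold higher. The log2 change was 1.85 (SE 0.44, adjusted p = 0.110), and it was 1.39 (SE 0.35, adjusted p = 0.250) without AA library 2. CXCL12 itself did not pass the filter, at 0.438, 0.103 and 0.259 FPKM in HA and 0.229, 4.41 and 0.0674 FPKM in AA.

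CCR1, a receptor of monocytes and macrophages for CCL5 and related ligands, was at 0.620, 0.0387 and 0.333 FPKM in HA and at 1.84, 10.9 and 2.57 FPKM in AA. The groups did not overlap, and the log2 change was 1.92 (SE 0.54, adjusted p = 0.146), or 1.28 without AA library 2. CCR1 passed the filter only through the AA libraries, since every HA library was under 1 FPKM, so it could not have been tested without being high in AA.

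CCRL2, which binds chemerin and does not signal as other chemokine receptors do, overlapped fully between the groups, at 1.96, 1.24 and 0.423 FPKM in HA and 0.104, 2.14 and 1.23 FPKM in AA. Its log2 change was −0.10 (SE 0.47), or −0.43 without AA library 2. The remaining receptors above 0 were under the filter. CX3CR1, the fractalkine receptor of monocytes, was at 0, 0.219 and 0.223 FPKM in HA and at 0.273, 0.890 and 0 FPKM in AA, with overlap. One of the rows named CCR2, the receptor of CCL2, was listed at 0 in every HA library and was at 0.0865, 1.01 and 0.439 FPKM in AA. The other row named CCR2 shares its locus with CCR3 and reached 0.0612 FPKM, so reads of these receptors may be divided between rows. CCRL1, a scavenger of CCL19 and CCL21, was at 0, 0.141 and 0 FPKM in HA and at 0.239, 0.697 and 0.453 FPKM in AA. XCR1, a receptor of cross-presenting dendritic cells, was at 0, 0.0614 and 0 FPKM in HA and at 0.0708, 0.646 and 0 FPKM in AA, with overlap.

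Of the 37 rows under the filter, 6 had AA libraries above all HA libraries (among them CCL8, CCR2, CCRL1, IL17RB and IL18) and none had them below. Of all rows of the table that were above 0 but under the filter, 8.49% and 2.69% did. Over all 101 rows, the AA libraries lay above the HA libraries in 12 and below in 1, while these shares were 8.58% and 5.73% over all rows of the table. Among the 28 that passed, 6 were higher without overlap (CXCR4, CCR1, IL6R, IL10RA, IL17RD and IL17RC) and 1 was lower (IL33), where 11.9% and 9.1% of all genes tested were. CCR1, IL6R and IL10RA could enter this count only by being high in AA, and over the 25 members without them 3 were higher and 1 was lower.

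Genes of these families lie in clusters, and the clusters were read as neighbourhoods on Sscrofa10.2. The receptor cluster on chr13:32129988-32568453 holds 9 rows, of which 7 were above 0 in some library and 6 of these were highest in AA library 2. The CC ligand rows on chr12:41048661-42516128 number 9, and all 6 that were above 0 were highest in AA library 2. They lie apart, as 5 rows on chr12:41048661-41228604 and 4 rows on chr12:42424409-42516128, with 4 and 2 above 0. The CXC ligand rows on chr8:74083529-77274304 number 6, with 5 above 0 and 3 of these highest in AA library 2. Of all genes tested, 23.5% were highest in that library, as were 27.3% of all rows above 0 but under the filter. The clusters hold few rows and were not tested against each other. Within the group of 5 CC ligand rows, CCL4 and CCL3L1, both inflammatory products of macrophages, reached 2.06 and 2.19 FPKM in AA library 2. CCL23 of the same group reached 4.14 FPKM there.

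**Figure D3:**
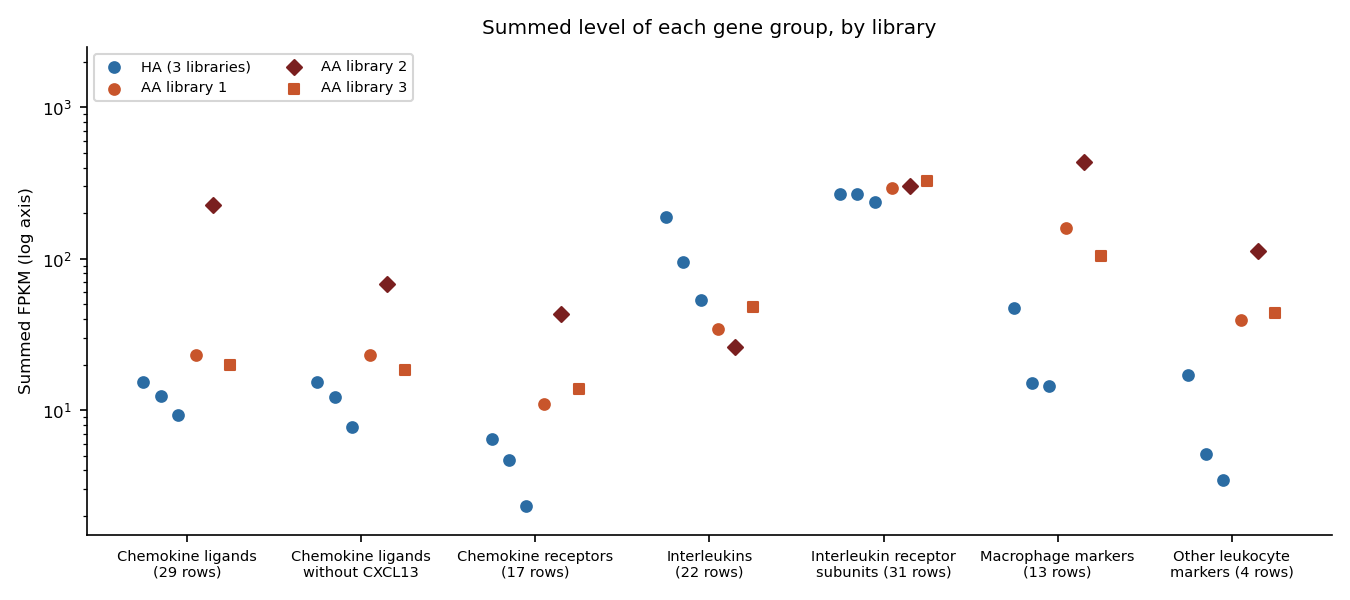
Summed FPKM of each gene group in each library on a log axis, with the HA libraries as blue circles from left (library 1) to right (library 3), and the AA libraries after them. The 31 interleukin receptor rows sum to 238 to 270 FPKM in HA and to 293 to 325 FPKM in AA. Chemokine ligands reach 226 FPKM in AA library 2 (67.6 FPKM without CXCL13), and the macrophage and leukocyte marker sums are highest in the same library.

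The summed levels of the roles differed in how they followed the libraries. Chemokine ligands summed to 15.5, 12.5 and 9.36 FPKM in HA and to 23.3, 226 and 19.9 FPKM in AA, and chemokine receptors to 6.49, 4.66 and 2.33 FPKM in HA and to 11.0, 43.4 and 13.8 FPKM in AA. Both sums were thus higher in every AA library than in any HA library, and both were highest in AA library 2, where the macrophage sum was also highest. The interleukin receptor subunits summed to 266, 270 and 238 FPKM in HA and to 293, 304 and 325 FPKM in AA. Their sum too was higher in every AA library than in any HA library, but it was highest in AA library 3. Interleukins ran the other way, with 188, 95.4 and 53.7 FPKM in HA and 34.6, 26.2 and 47.8 FPKM in AA. IL33 made up most of the interleukin sum in 5 libraries, but only 10.22 of 26.2 FPKM in AA library 2. These sums are over rows of the table and were not tested.

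Of the 5 members with the highest mean over the 6 libraries, 4 were receptor subunits (IL6ST, IL13RA1, IL27RA and IL20RB) and 1 was IL33. IL6ST encodes gp130, the signalling chain shared by the receptors of interleukin 6, interleukin 11 and leukaemia inhibitory factor. It was at 77.2, 71.7 and 67.6 FPKM in HA and at 61.8, 56.7 and 89.0 FPKM in AA, which enclosed the HA values. The log2 change was −0.09 (SE 0.20, adjusted p = 0.871), or 0.04 without AA library 2. IL27RA, which pairs with gp130 to bind interleukin 27, was at 31.5, 46.8 and 37.4 FPKM in HA and at 40.8, 44.7 and 36.9 FPKM in AA, with a log2 change of 0.09 (SE 0.19), or 0.03 without AA library 2. IL11RA, the ligand-binding chain for interleukin 11, was at 4.88, 8.85 and 12.5 FPKM in HA and at 12.3, 8.42 and 6.06 FPKM in AA, with a log2 change of 0.06 (SE 0.37), or 0.08 without AA library 2. For these 3 subunits the difference between the groups was smaller than its standard error.

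IL6R, the chain that binds interleukin 6 and then recruits gp130, was lower and less even. On chr4:104198430-104250107 it was listed at 0, 0.911 and 0.915 FPKM in HA and was at 4.08, 9.09 and 2.18 FPKM in AA. All AA libraries were above all HA libraries, with a log2 change of 1.82 (SE 0.48, adjusted p = 0.132), or 1.38 (adjusted p = 0.334) without AA library 2. IL6R passed only through the AA libraries, and its counts as scaled by the authors were 34.7 in AA library 1 and 51.5 in AA library 2, so these values rest on few fragments. A row without a name at the same locus, which the reference list also calls IL6R, was at 1.63, 0.419 and 0.318 FPKM in HA and at 2.24, 7.01 and 2.77 FPKM in AA. It too lacked overlap, and the division of reads between these rows is uncertain.

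The receptor chains for interleukin 4 and interleukin 13 were present at high levels. IL13RA1, which pairs with IL4R, was at 56.3, 49.3 and 40.5 FPKM in HA and at 56.0, 63.1 and 61.1 FPKM in AA. Its log2 change was 0.31 (SE 0.17, adjusted p = 0.439), or 0.27 without AA library 2, and AA library 1 lay just under HA library 1. IL4R was at 7.01, 6.97 and 22.6 FPKM in HA and at 15.1, 36.3 and 15.5 FPKM in AA, with a log2 change of 0.91 (SE 0.49, adjusted p = 0.422). This became 0.51 without AA library 2 and 1.43 without HA library 3, the highest HA library. IL13RA2, which binds interleukin 13 and is regarded as a decoy, was at 29.5, 15.3 and 8.41 FPKM in HA and at 16.4, 9.29 and 35.7 FPKM in AA. It showed wide scatter within both groups and no separation, with a log2 change of 0.16 (SE 0.53), or 0.59 without AA library 2. IL13 itself was listed at 0 in every library.

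IL20RB, a chain of the receptors for interleukins 19, 20 and 24, was at 40.5, 45.3 and 20.7 FPKM in HA and at 48.0, 13.5 and 51.7 FPKM in AA. Unlike the chemokine ligands and receptors that passed the filter, it had its lowest value in AA library 2. IL33 and IL6ST were also lowest there. The log2 change of IL20RB, −0.05 (SE 0.51), became 0.55 (SE 0.33, adjusted p = 0.686) without AA library 2. Its partner chain IL20RA and the ligands IL19 and IL20 were listed at 0 in all 6 libraries.

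Of the interleukin 17 receptor family, IL17RA, IL17RC and IL17RD passed the filter, IL17RB and IL17RE were under it, and IL17REL was listed at 0 throughout. IL17RA, the chain common to these receptors, was at 7.80, 12.8 and 15.7 FPKM in HA and at 19.1, 18.1 and 10.4 FPKM in AA, with overlap. Its log2 change of 0.37 (SE 0.32, adjusted p = 0.619) was 0.26 without AA library 2 and 0.11 without HA library 1. IL17RC, its partner for interleukin 17A, was at 3.01, 4.64 and 3.88 FPKM in HA and at 4.66, 6.27 and 4.97 FPKM in AA. Although its groups did not overlap, AA library 1 exceeded HA library 2 by very little, and the log2 change was 0.39 (SE 0.27, adjusted p = 0.532), or 0.28 without AA library 2.

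IL17RD, also known as Sef and as an inhibitor of fibroblast growth factor signalling, was at 3.60, 4.62 and 3.94 FPKM in HA and at 8.42, 9.45 and 5.47 FPKM in AA. The means were 4.05 ± 0.521 FPKM (SD, n = 3) in HA and 7.78 ± 2.06 FPKM (SD, n = 3) in AA, which is 1.92-fold higher. Its log2 change of 0.77 (SE 0.27, adjusted p = 0.231) was 0.63 without AA library 2. IL17RB, the receptor of interleukin 25, was under the filter at 0 to 0.114 FPKM in HA and 0.257, 1.70 and 0.305 FPKM in AA. The ligand IL17A was listed at 0 throughout.

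The receptor chains of leukocytes were low in HA. IL10RA, the chain that binds interleukin 10, was at 0.709, 0.478 and 0.285 FPKM in HA and at 1.88, 8.62 and 1.28 FPKM in AA. The groups did not overlap, and the log2 change was 1.43 (SE 0.53, adjusted p = 0.256), or 0.79 without AA library 2. IL10RA also passed the filter only through AA. IL2RG, the common gamma chain of lymphocyte cytokine receptors, was at 3.24, 0.556 and 2.17 FPKM in HA and at 2.38, 15.8 and 2.30 FPKM in AA. Here the AA libraries 1 and 3 were within the HA range, and the log2 change of 1.05 (SE 0.67, adjusted p = 0.497) became 0.28 without AA library 2. IL4I1, a secreted amino acid oxidase induced by interleukin 4, was at 1.34, 0.969 and 1.78 FPKM in HA and at 1.80, 2.11 and 0.801 FPKM in AA, with overlap (log2 change 0.10, SE 0.34, or −0.06 without AA library 2).

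**Figure D4:**
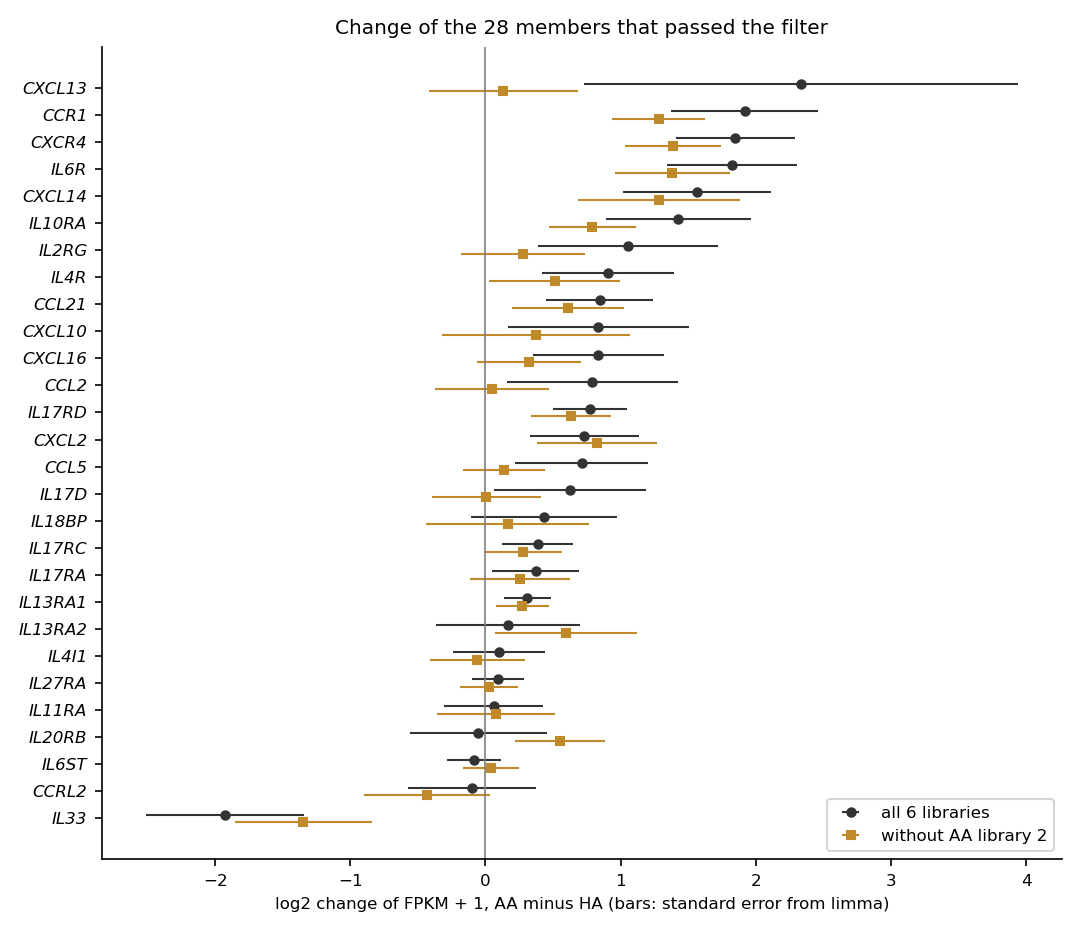
Log2 change of FPKM + 1 (AA minus HA) of the 28 members that passed the filter, with bars for the standard error from limma, over all 6 libraries (black circles) and without AA library 2 (gold squares). CXCL13 moves from 2.34 to 0.13, CXCR4 from 1.85 to 1.39, and IL33 from −1.93 to −1.35.

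Across the members that passed, the median log2 change was 0.72, against 0.01 over all 11001 genes tested, and 24 of the 28 (85.7%) were above 0, against 51.6% of all genes. Since 3 of them passed through AA alone, this median carries the filter as well, and over the other 25 it was 0.62. The 25 are not free of the filter either. CCL5 and CXCL2, for example, reached 1 FPKM in every AA library but, among the HA libraries, in library 1 alone. Without AA library 2 the median was 0.28 over the 28 and 0.27 over the 25, against 0.04 over all genes. In that fit 25 of the 28 were above 0, among them the 3 that passed through AA alone, against 54.9% of all genes tested. The change was smaller in size for 23 of the 28 when AA library 2 was left out. The same count over all genes was not made. AA library 2 was the highest of the 6 libraries for 18 members that passed (64.3%), where 23.5% of all genes tested were highest in it, and for 18 of the 37 under the filter, where 27.3% of all such rows of the table were. It also had the most members at 1 FPKM or more, 39 against 27 and 29 in AA libraries 1 and 3 and 18 to 23 in the HA libraries. Over all genes of the table it had the most as well, 11187 against 11127 and 10773 in AA libraries 1 and 3. The HA libraries had 10507 to 10797. At an unadjusted p of at most 0.05 without AA library 2, 4 members were higher and 1 lower. Of all genes tested, 6.48% were higher and 3.25% lower in that fit. With the replicate number as a block, 5 members were higher and 1 lower at that threshold, against 7.04% and 3.9% of all genes tested. Both counts of higher members include CCR1, IL6R and IL10RA, which could be tested only because they were high in AA. Without AA library 2 the remaining higher member was CXCR4.

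Genes that act with the members but do not carry their names were taken from 3 lists: Janus kinases, STAT factors and their SOCS inhibitors, adaptors of NF-kB signalling, and cytokines and receptors with other names. No gene of these lists was called among the 49 tested (smallest adjusted p 0.0719), and 12 were higher and 2 lower in AA at an unadjusted p of at most 0.05, a threshold that 9.48% and 6.14% of all genes tested reached. The following were picked after their values were seen. JAK1, a kinase bound to gp130, was at 58.2, 59.2 and 50.1 FPKM in HA and at 97.7, 150 and 101 FPKM in AA, without overlap (log2 change 1.02, SE 0.20, adjusted p = 0.0719, or 0.82 without AA library 2). STAT3, the factor that gp130 activates, was at 52.6, 44.1 and 35.2 FPKM in HA and at 55.5, 81.5 and 63.1 FPKM in AA (log2 change 0.59, adjusted p = 0.242, or 0.44 without AA library 2). JAK3, the kinase of the common gamma chain, was at 32.8, 47.0 and 58.3 FPKM in HA and at 36.4, 23.3 and 22.3 FPKM in AA (log2 change −0.73, adjusted p = 0.250, or −0.63 without AA library 2). Its level was above that of IL2RG, the chain it binds, in all 6 libraries.

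IRAK3, an inhibitor of signalling by the receptor family that includes ST2, was at 23.0, 8.54 and 6.67 FPKM in HA and at 4.11, 3.504 and 1.45 FPKM in AA. It was lower in every AA library, with a log2 change of −1.65 (SE 0.47, adjusted p = 0.149), or −1.77 without AA library 2. TRAF3IP2, the adaptor of the interleukin 17 receptors known as Act1, was at 2.35, 2.72 and 1.99 FPKM in HA and at 7.04, 14.2 and 5.34 FPKM in AA. It was higher in every AA library, with a log2 change of 1.46 (SE 0.36, adjusted p = 0.116), or 1.10 without AA library 2. For ST2 no value is given, because the row named IL1RL1 has the symbol IL18R1 in the reference list and its identity is uncertain.

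Circular RNAs formed by back-splicing were looked up for the members by host gene and coordinates. Only 9 of 9362 circRNAs had a member as host, from 4 genes, with 122 junction reads over libraries of 25838 to 34414 junction reads each. A circRNA of IL6R from chr4:104224060-104235575, which spans 11516 nt and was classed as sense overlapping, had 4 and 40 reads in AA libraries 1 and 2 and none in the other 4 libraries. These are 2 of the 3 libraries in which the linear IL6R rows were above every HA library. IL27RA gave 3 exonic circRNAs. The one of 234 nt, from chr2:65415192-65415523, was already in the published lists the authors used and had 20 reads in AA library 2, while HA libraries 1 and 2 had 4 and 8. IL6ST gave 4, of which an exonic circRNA of 1873 nt had 18 reads in AA library 3 alone, and one of 603 nt had 6 and 3 reads in HA libraries 2 and 3. IL33 had only an antisense circRNA with 2 reads in HA library 2. With so few reads no circRNA was tested, and the table holds no count of 1, so a value of 0 may hide a single read.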

How the data were processed

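The samples used were 6 libraries, 3 HA and 3 AA, matched to their columns by the date and group in the column names. The authors depleted rRNA, made stranded libraries, read them as paired ends on an Illumina HiSeq and aligned them to Sscrofa10.2 (susScr3). The deposited gene table gives FPKM, which the authors calculated with TopHat and Cufflinks. Neither their versions nor the use of strand in counting is given in the sources used here. The same deposited table gives counts as scaled by the authors' tool, a signal that is not whole reads, with totals of 12874895 to 14336027 per library. These served only to judge depth. For circRNAs the authors deposited the count of back-splice junction reads found by find_circ, and log2 values, which the authors scaled to mapped reads and which were not used here for results. The lncRNA table was not used, and 0 value columns belonged to no sample.

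FPKM were tested with limma 3.58.1 (R 4.3.3, with trend) on log2(FPKM + 1) for genes that reached 1 FPKM in 3 or more libraries, with Benjamini-Hochberg adjustment over all 11001 genes and a threshold of 0.05. The script was tested on simulated data. Pools of the same group are separate follicles, and p-values measure the spread between these pools. The gilts behind each pool are not stated, so 1 animal may have given follicles to several pools and to both groups. The precision of an FPKM depends on the fragments behind it, so values under 1 FPKM are the least certain.

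The members, roles and gene lists were chosen with earlier results of these data known. Named with values in every library were members called, the up to 8 members of each role with the highest mean FPKM, those with a log2 change of at least 1 in size, and IL33. The values of 1 member that this rule would name are not reported here. Other members named were picked after their values were seen. The alternatives were the replicate number as a block, a pseudocount of 0.1, no filter, at least 5 FPKM in 3 libraries, quantile normalization, median-ratio scaling, no trend, a fold change of at least 2, an unadjusted p, and leaving out each library. In the labels an AA and an HA library with 1 number carry 1 date, read here as a shared day. After centring on the group, the correlations of numbers 1, 2 and 3 over the 11001 genes were −0.29, 0.00 and −0.40, while AA 1 with HA 3 gave 0.40 and AA 3 with HA 1 gave 0.30. Protein and promoter sequences were not used here.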

Additional observations from a re-analysis of the deposited data

How the results depend on the processing

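No member was called under any alternative that keeps the adjusted p, and none of the 49 signalling genes was either. Counted at an unadjusted p of at most 0.05, 6 members were higher and 1 lower, and 12 and 2 of the signalling genes were. Of all genes tested, 9.48% were higher and 6.14% lower at that threshold. With the replicate number as a block, 0 members were called higher or lower, and the smallest adjusted p of a member was 0.161. At the unadjusted threshold 5 were higher and 1 lower with the block (7.04% and 3.9% of all genes tested). The 6 and the 5 higher members both include CCR1, IL6R and IL10RA, which passed the filter only through the AA libraries. The same block called 13 genes of the whole table. Median-ratio scaling called 11 genes in all (9 higher and 2 lower), leaving out AA library 1 called 1 higher and 1 lower, leaving out AA library 2 called 6 higher, and leaving out AA library 3 called 83 higher and 22 lower. None of these was a member (smallest adjusted p over the members in any of them 0.0663, for IL6R without AA library 3).

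The direction was kept under all alternatives by 21 of the 28 members. Quantile normalization turned IL11RA to −0.032 and IL4I1 to −0.083 on the log2 scale. Over leaving out each library in turn, the log2 change ranged from −0.43 to 0.32 for CCRL2, −0.26 to 0.34 for IL11RA, −0.32 to 0.60 for IL13RA2, −0.39 to 0.55 for IL20RB, −0.039 to 0.24 for IL27RA, −0.061 to 0.33 for IL4I1 and −0.28 to 0.042 for IL6ST. It ranged from −2.39 to −1.35 for IL33, 1.39 to 2.10 for CXCR4 and 1.38 to 2.22 for IL6R. Over all alternatives the adjusted p ranged from 0.0863 to 0.431 for IL33, 0.0774 to 0.303 for CXCR4 and 0.0663 to 0.334 for IL6R. Of the 101 members, 37 were above 0 but under the filter, and whether depth or a low level keeps them there was not tested.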
